A study of Mus musculus and synthetic construct with 21 samples.

Results

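PPREwt_126 is a site of the w class on mouse chromosome 8, and its element carries a sequence close to a DR1 motif. Its members were chosen by name: every element named for this w site, plus every element of another site that carries its motif. There were 187 such oligos among 22362 in the series. Pool 1 held 2 of them, pool 2 held 54 with the surroundings of the site and 48 with its motif in 24 other sites, and pool 4 held 83. The site had been picked for the effect of its motif in pool 1, so the pool 1 values are a description and carry no test. Results of pools 2 and 4 were also known at that point, so their p-values give no independent support for the choice.

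The series tested designed elements as enhancers in 3T3-L1, a mouse pre-adipocyte line that turns into adipocytes after induction. All groups shared the induction that the labels give, insulin at 1.7 µM and dexamethasone at 1 µM together with the phosphodiesterase inhibitor IBMX at 0.5 mM. The assay was an MPRA (massively parallel reporter assay), in which an element sits on a plasmid with several short barcodes and the barcode counts in RNA are divided by those in the plasmid pool. RNA was taken 16 h after transfection, and each pool had 1 RNA and 1 plasmid library. Pool 1 also had 1 PPARγ chromatin immunoprecipitation (ChIP) library of the transfected plasmids and 1 input library. The forms of PPREwt_126 were wd in pool 1 and mut in pools 2 and 4 (read as an altered motif), the dr1, ctrl and ctrl5 forms, the comp, swap and ctrlswap windows, and motifs of other sites, with the native element (wt, or the site's own motif in pool 2) as the comparison. No source used here explains the codes, and they are read from the names alone.

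PPARγ is a nuclear receptor and the master regulator of fat cell formation. It binds DNA as a heterodimer with RXR, and its preferred site, the DR1, is a direct repeat of the half-site AGGTCA with a single base between the copies. Other nuclear receptors, among them HNF4, COUP-TF and RAR with RXR, can bind repeats of the same half-site, so a sequence of this kind need not be read by PPARγ alone. The strength of an enhancer also depends on the DNA around the motif, where other factors bind, and the pools varied the motif and these surroundings separately.

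The motif of PPREwt_126 lies at chr8:90491393-90491408 of mm9 on the plus strand. It differs from the DR1 half-sites at 2 of their bases, T7C in the first half-site and G13T in the second (consensus base, position from 1 at the 5′ end of the 16-base sequence, site's base). Of 750 w sites, 137 (18.3%) have at most 2 such differences, and among the 25 sites of pools 2 and 4 this holds for 3, the others being sites 360 and 705. The label of a close match therefore fits within the 25 sites, while 36 w sites have at most 1 difference. The sequences below are the site's own motif and the motifs that gave the 3 lowest and the 3 highest activities in its surroundings in either series of pool 2. They are written 5′ to 3′ with capitals at the bases that differ from the half-sites.
PPREwt_126 motif: actaggCcagagTtca
motif 413: agcaAgGcagaggGAa
motif 509: tcaaAgCcaaaggtGa
motif 342: accaAgtGaaaAgtca
motif 360: actaggtTaaaggtAa
motif 249: aatGggGcaaagTtGa
motif 704: actGggAcaaaTgtca
motif 591: actagAGcaaGAgtca
motif 539: tttaggGcaaagAGca
motif 142: tctGggCAaaaggGTa
motif 199: acaTgCAcaaaggtca
Motif 360, with 2 differences, was among the lowest of the series named bound5, and motif 142, with 5, was among the highest of the same series.

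Library totals ran between 17716666 counts (pool 2 RNA) and 48475346 counts (pool 4 plasmid) in the reporter libraries of the 3 pools. The ChIP library held 1987761 counts and its input library 1381624. Each element had 9 barcodes in pool 1, 20 in pool 2 and 13 in pool 4. All barcodes of members passed the minimum of 20 plasmid counts in pools 1 and 2, and 1055 of 1079 did in pool 4, where 64 of 83 members kept all. Summed plasmid counts of members were 16307 to 18887 in pool 1, 10421 to 60994 in pool 2 and 8254 to 61264 in pool 4. The median SD between barcodes of a member was 0.747, 0.900 and 0.818 log2 units in the 3 pools in that order. Activity below is log2 of RNA over plasmid counts after scaling to library totals, given as the median over barcodes. Since no library had a replicate, p-values below cover the spread between barcodes of 1 transfection and not between cultures.

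In pool 1, the altered element of PPREwt_126 was 7.59-fold less active than the native one. The 9 barcodes of wd lay between -1.96 and 0.78 with a median of 0.01 (SD 0.863), against 1.28 to 3.22 with a median of 2.94 (SD 0.631) for the 9 barcodes of wt. Of the 9 wt barcodes, 2, at 1.28 and 2.09, lay apart from the other 7, which read 2.92 to 3.22. The difference of -2.93 log2 units was the 6th largest fall among 749 w sites, whose median difference was -0.51. The next larger fall was -2.94 at site 142 and the next smaller -2.91 at site 199. The native element ranked 18th of 749 by its level (median of sites 0.09), and the altered element 134th of 750 (median -0.44), so what remained without the motif was still above the typical altered w site.

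The c class of pool 1 holds an element with the same 16 bases at another locus, chr14:57223435-57223450 of mm9. In those surroundings the motif gave little activity. The cd barcodes had a median of -0.60 (SD 0.556, n = 9 barcodes) and the ct barcodes a median of -0.29 (SD 0.465, n = 9 barcodes). The difference of -0.31 was the 192nd largest fall among 750 c sites, whose median difference was -0.08. The native w element was 3.22 log2 units above the native c element, and the altered w element 0.61 above the altered c element. The same letters thus stood beside a difference of -2.93 in the w surroundings and of -0.31 in the c surroundings.

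PPARγ ChIP on the plasmids gave the same order of the 4 forms as activity did. The altered element wd had 1399 ChIP and 694 input counts, a binding ratio of 0.49 on the log2 scale (95% interval 0.35 to 0.62). The native element wt had 3044 ChIP and 693 input counts, a binding ratio of 1.61 (1.49 to 1.73), which ranked 50th of 567 listed native w elements (median 0.30). Altered minus native was -1.12 (-1.30 to -0.95), against a median of -0.44 over 541 w sites, and ranked 110th from the largest fall. These intervals are exact binomial intervals for an element and normal approximations of the log odds ratio for a difference, and they cover counting error only. The wd form stayed above the median altered w element (-0.17, rank 92nd of 566).

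The c element with the same motif was bound less in both forms. The cd form had 3349 ChIP and 3457 input counts, a ratio of -0.57 (-0.64 to -0.50), and the ct form 6557 ChIP and 3948 input counts, a ratio of 0.21 (0.15 to 0.26). Altered minus native was -0.78 (-0.87 to -0.69) in the c class, against a median of -0.24 over 404 c sites. Native w stood 1.40 above native c, and altered w 1.06 above altered c. The fall in binding with the motif altered was therefore -1.12 in the w and -0.78 in the c element, where activity had changed by -2.93 and -0.31. No test was made on these values, since the ChIP and input libraries were single.

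The altered motif was measured again in pools 2 and 4, with other barcodes and libraries. In pool 2, mut had a median of -2.46 (SD 1.15, n = 20 barcodes, -4.60 to -0.33) and the own motif a median of 0.38 in the bound0 series (SD 0.812, n = 20 barcodes, -1.72 to 1.41). The difference was -2.84, the 3rd lowest of 25 sites and a 7.15-fold fall. Mean log2 activity differed by -2.31 ± 0.314 (SE), with an adjusted p of 8.5e-05 in a 2-sided permutation test between barcodes, adjusted with the Benjamini-Hochberg method over 1300 tests of the pool. In pool 4, mut had a median of -1.45 (SD 0.837, n = 13 barcodes, -2.14 to 0.51) and wt a median of 0.98 (SD 0.773, n = 13 barcodes, -0.90 to 1.66). That difference was -2.43, the 4th lowest of 25 sites and a 5.40-fold fall, with a mean difference of -1.84 ± 0.316 (SE). Its adjusted p was 0.000446 by the same permutation test over 2050 tests of pool 4. The barcodes of the altered and native elements overlapped in both pools.

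A fall with mut was common among these sites. An element is called here when its adjusted p is under 0.05, and mut was called lower in 76.0% of 25 sites in pool 2 and in 56.0% in pool 4. The site was picked with these results known, so the ranks and p-values of mut in pools 2 and 4 are no independent support for its effect.

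The dr1 form, read as a consensus DR1 put in place of the native motif, did not keep the activity of the native motif in PPREwt_126. It had a median of -1.88 (SD 0.947, n = 20 barcodes, -4.52 to -0.83), against 0.38 for the own motif, a difference of -2.26 with an adjusted p of 8.5e-05 by the permutation test. This was the lowest dr1 difference of the 25 sites. In the other 24 sites dr1 minus native ran from -2.17 to 0.28 with a median of -0.81, and dr1 was called lower in 60.0% of all 25. The dr1 form was not called different from mut. The mean of dr1 minus mut was -0.03 ± 0.332 (SE), with an adjusted p of 0.958 over 250 pairs of forms at all 25 sites, and the medians differed by 0.58. At all sites together dr1 was called higher than mut in 40.0% and lower in 4.0%.

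The ctrl form, whose name does not say what was changed, was also low. In pool 2 it had a median of -2.43 (SD 0.997, n = 20 barcodes), -2.81 from the own motif with an adjusted p of 8.5e-05 by the permutation test, where 68.0% of sites had a lower call. Mut minus ctrl in pool 2 was 0.43 ± 0.34 (SE) by means, with an adjusted p of 0.305 by the permutation test, and mut was called higher than ctrl in 32.0% of sites and lower in 4.0%. In pool 4, ctrl had a median of -1.24 (SD 1.26, n = 13 barcodes, -4.74 to 0.27), -2.22 from wt with an adjusted p of 0.000446 by the permutation test, where 56.0% of sites had a lower call. Mut minus ctrl in pool 4 was 0.45 ± 0.419 (SE) by means, with an adjusted p of 0.419 by the permutation test, where 24% of sites had a higher and 8.0% a lower call.

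The ctrl5 form of pool 2 kept more activity than ctrl. Its median was -1.07 (SD 0.87, n = 20 barcodes, -3.15 to -0.30), 1.36 above ctrl with an adjusted p of 0.000208 by the permutation test over 250 pairs, and 68.0% of sites had a higher call. Ctrl5 was still -1.45 from the own motif of the bound0 series, with an adjusted p of 8.5e-05 by the permutation test. Of the 25 sites, 24% had a lower ctrl5 call, and the difference at PPREwt_126 was the 3rd lowest of 25.

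Pool 4 scanned the element with windows. The numbers in the names are read as a window's length and its start, so comp windows are 10 bases long and swap windows 20, set every 5 bases, and both scans reach base 145. Windows called lower lay in 2 stretches of the element, and windows called higher lay near base 125 and, in the swap scan alone, at start 0. The first stretch of loss had calls at starts 50 and 60 in both scans, with the window at start 55 not called in either. The other lay at starts 100 and 105 in the comp scan and at starts 80 to 110 in the swap scan. The higher calls near base 125 were comp10_125, swap20_115 and swap20_120.

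In the comp scan, 4 of 28 windows were called lower and 1 higher, where all 700 comp windows of the 25 sites gave 11.4% lower and 1.43% higher. The share called lower was close to this background, and 7 other sites had more. The median difference of the 28 windows from wt was -0.19, against -0.26 over all comp windows. The lowest window was comp10_50, with a median of -1.04 (SD 0.637, n = 13 barcodes, -2.18 to -0.17), a difference of -2.02 from wt with an adjusted p of 0.000446 by the permutation test. At start 50 this was the lowest value of 25 sites, the other 24 having a median difference of -0.25. The window 10 bases on, comp10_60, was at -0.25, -1.23 from wt, with an adjusted p of 0.0247 by the permutation test (0.064 with at least 100 plasmid counts per barcode). Between them, comp10_55 read 0.04, a difference of -0.94 that was not called (adjusted p 0.121, permutation test).

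The other called loss of the comp scan lay at starts 100 and 105. Comp10_100 had a median of -0.73 (SD 0.682, n = 13 barcodes, -2.55 to -0.21), a difference of -1.71 with an adjusted p of 0.000446 by the permutation test. Comp10_105 had a median of -0.54 (SD 0.696, n = 13 barcodes), a difference of -1.52 with an adjusted p of 0.00173 by the permutation test. Their neighbours comp10_95 and comp10_110 read -0.08 and -0.31, differences of -1.06 and -1.29 that were not called. By means, which the test compared, these 2 differences were smaller, -0.79 and -0.70. The 9 windows with starts 0 to 40 lay at 0.78 to 1.34 and none was called. The 3 windows with starts 65 to 75 lay at 0.79 to 1.29, again with none called. Windows at the level of wt thus separated the stretches of loss. At starts 65 and 70, none of the other 24 sites had a call in either direction. For comparison, mut was called lower in 56.0% of the 25 sites in pool 4. No source used here says where the motif lies in the element, and whether these windows altered it was not tested.

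One comp window raised activity. Comp10_125 had a median of 2.90 (SD 0.746, n = 13 barcodes, 1.33 to 4.01), 1.92 log2 units above wt, with an adjusted p of 0.000446 by the permutation test. Most of its barcodes lay above the highest wt barcode, at 1.66. At start 125 this was the highest difference of 25 sites, where the other 24 ran from -2.74 to 0.64 with a median of -0.26, 3 of them called lower and none higher. The window before it, comp10_120, was at 1.64, 0.66 above wt (adjusted p 0.115, not called), and the window after it, comp10_130, at 0.18, -0.80 from wt (adjusted p 0.304, not called). The 3rd highest level of the scan was comp10_5 at 1.34, which was not called.

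The longer swap windows gave a similar map with a wider second loss. Of 26 windows, 9 were called lower and 3 higher, where all 650 swap windows of the 25 sites gave 16.2% lower and 1.08% higher. One other site had more windows called lower, and the other 24 sites together gave 15.4%. Swap20_50 read -0.28 and swap20_60 read -0.07, differences of -1.26 and -1.05 with adjusted p of 0.00505 and 0.0249 by the permutation test. Between them, swap20_55 read 0.07, a difference of -0.91 that was not called (adjusted p 0.137, permutation test). Starts 80 to 110 formed an unbroken run of 7 windows called lower, with levels of -0.92 to -0.05 and differences of -1.90 to -1.03. The lowest of the run were swap20_90 at -0.92, swap20_95 at -0.90 and swap20_80 at -0.89, against 0.98 for wt. Swap20_95 had an SD of 0.616 (n = 13 barcodes, -2.13 to -0.06) and an adjusted p of 0.000446 by the permutation test. The other windows of the run were swap20_85 at -0.53, swap20_100 at -0.43, swap20_105 at -0.36 and swap20_110 at -0.05, with adjusted p of 0.00456, 0.0274, 0.0242 and 0.0253 by the permutation test. Swap20_80 covered the same bases as comp10_80 and comp10_90, which read 0.15 and 0.80 and were not called. With no minimum on plasmid counts, swap20_100 and swap20_105 lost their calls (adjusted p 0.246 and 0.232, permutation test).

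Higher calls near base 125 also appeared in the swap scan. Swap20_115 had a median of 2.10 (SD 0.598, n = 13 barcodes, 0.56 to 3.07), 1.12 above wt, with an adjusted p of 0.000831 by the permutation test. Swap20_120 was at 1.69, 0.71 above wt, with an adjusted p of 0.0452, and swap20_125 was at 1.46 and not called (adjusted p 0.919, 1 barcode at -4.23). These windows and comp10_125 all covered bases 125 to 135. A further window called higher, swap20_0 at the far end, was at 1.69 (SD 0.352, n = 13 barcodes), 0.71 above wt with an adjusted p of 0.0119 by the permutation test. When counts were summed over barcodes instead, its difference was 0.30.

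The 26 swap levels followed the mean of the comp levels that covered the same bases, with a Spearman rho of 0.80 and a Pearson r of 0.79. In the other 24 sites this rho ran from -0.13 to 0.72 with a median of 0.30, so the scans matched more closely at PPREwt_126 than at any of the others. Neighbouring windows overlap and all share wt as their comparison, so these values are a description over 26 points that are not independent.

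In the reverse scan, ctrlswap windows, read as native windows put into the ctrl form, none of 26 was called lower and 3 were called higher, where all 650 gave 0.769% lower and 1.85% higher. Without adjustment, 5 windows had a permutation p under 0.05. Ctrlswap20_75 had a median of -0.21 (SD 0.643, n = 12 barcodes, -1.50 to 0.51), 1.02 above ctrl, with an adjusted p of 0.0277 by the permutation test. Ctrlswap20_90 was at -0.61 and ctrlswap20_55 at -0.69, which were 0.63 and 0.54 above ctrl, with adjusted p of 0.0462 and 0.0477 by the permutation test. By means, which the test compared, ctrlswap20_75, ctrlswap20_90 and ctrlswap20_55 were 1.245, 1.099 and 1.204 above ctrl. With rank sums as the statistic, ctrlswap20_90 was not called (adjusted p 0.06). The highest median was that of ctrlswap20_85 at -0.04, 1.20 above ctrl and not called (adjusted p 0.312), with barcodes from -4.95 to 1.26. The lowest were ctrlswap20_120 at -1.77, ctrlswap20_40 at -1.76 and ctrlswap20_15 at -1.71, none of them called. No ctrlswap window reached the level of wt, 0.98, and the comparison element ctrl included 1 barcode at -4.74.

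The windows that raised the ctrl form lay in or beside the stretches whose change had lowered the native form. Across the 26 starts, swap and ctrlswap levels ran opposite, with a Spearman rho of -0.71 and a Pearson r of -0.66, as a description over overlapping windows. The ctrlswap windows at starts 115 to 125 lay at -1.77 to -1.14 with none called.

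Pool 2 put the motifs of 24 other sites into PPREwt_126, in 2 series named bound0 and bound5. The first number of a name is read as the surroundings and the second as the motif. The own motif had a median of 0.53 in the bound5 series (SD 0.735, n = 20 barcodes, -1.62 to 1.25) and 0.38 in the bound0 series. Bound5 minus bound0 for the own motif was 0.22 ± 0.245 (SE) by means, with an adjusted p of 0.509 by the permutation test over 250 pairs.

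In the bound0 series, 15 of 24 foreign motifs were called lower than the own motif and none higher, where all 600 exchanges among the 25 sites gave 21.3% lower and 9.83% higher. There were 2 other sites with more motifs called lower. By level, foreign motifs lay between -2.24 and 0.53 with a median of -0.47, and the own motif ranked 4th of 25. Motif 413 was lowest at -2.24 (SD 1.13, n = 20 barcodes, -4.93 to -0.27), a difference of -2.62 that came near the -2.84 of mut. Motif 509 read -1.87 and motif 342 read -1.46, differences of -2.25 and -1.84, and each of these 3 had an adjusted p of 8.5e-05 by the permutation test. At the other end, motif 249 read 0.53, motif 704 read 0.48 and motif 591 read 0.44, against 0.38 for the own motif, with adjusted p of 0.308, 0.987 and 0.61 by the permutation test. For motif 249 the mean difference was 0.29 ± 0.222 (SE).

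In the bound5 series, 23 of 24 foreign motifs were called lower and none higher, where all 600 exchanges gave 37.2% lower and 8.83% higher. One other site had as many as 24 called lower. Foreign motifs lay between -2.36 and 0.05 with a median of -1.36, and the own motif ranked first. Motif 413 was again lowest at -2.36 (SD 0.759, n = 20 barcodes, -4.70 to -1.35), followed by motif 509 at -2.03 and motif 360 at -1.86, differences of -2.89, -2.56 and -2.39 with an adjusted p of 8.5e-05 each by the permutation test. The highest was motif 539 at 0.05 (SD 1.33, n = 20 barcodes, -3.95 to 0.92), a difference of -0.48 that was not called (adjusted p 0.0739). Motif 142 read -0.14 and motif 199 read -0.15, differences of -0.67 and -0.68 with adjusted p of 0.0353 and 0.0126 by the permutation test.

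Most foreign motifs were less active in the bound5 form than in the bound0 form of PPREwt_126. Bound5 minus bound0 was below 0 for 20 of 24 motifs, with a median of -0.73 and a range of -1.91 to 1.06. Over all 600 foreign pairs of the 25 sites it was below 0 for 378, with a median of -0.25, and PPREwt_126 ranked 5th lowest by its median. Motif 591, for example, had a median of -1.47 in the bound5 series and 0.44 in the bound0 series, while motif 142 had -0.14 in the bound5 series and -0.99 in the bound0 series. The order of the 24 motifs was only loosely shared between the series (Spearman rho 0.22).

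Closeness to the DR1 did not order the motifs in these surroundings. Over 25 motifs, Spearman rho between level and number of differences from the half-sites was 0.08 in the bound0 and -0.14 in the bound5 series. The 12 motifs with 3 differences alone spanned -1.87 to 0.48 in the bound0 series and -2.03 to 0.05 in the bound5 series. Motif 360, with 2 differences as in the native one, read -0.27 in the bound0 and -1.86 in the bound5 series, and motif 705, also with 2, read -0.45 and -0.77 in the same order. The level of a foreign motif in PPREwt_126 went with its mean in the other sites, centred per site, with a rho of 0.65 in the bound5 and 0.41 in the bound0 series (n = 24 motifs). Against the number of bases that differ from the PPREwt_126 motif, rho was -0.46 in the bound0 and -0.13 in the bound5 series. The motifs share 1 set of surroundings and 1 library pair in all these relations, which are descriptions.

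Placed in other sites, the motif of PPREwt_126 gave levels that followed the site. In the bound0 series it read from -2.81 in site 360 to 2.07 in site 322, where the own motifs of those sites read -2.59 and 2.65. It was called lower than the own motif in 3 of 24 sites and higher in 4, where all 600 exchanges gave 21.3% lower and 9.83% higher. The 24 differences had a median of 0.11, the 2nd highest of 25 motifs, against -0.10 over all exchanges.

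The PPREwt_126 motif was lower than the own motif in site 39, where it read -1.27 against -0.23 for the own motif, a difference of -1.04 with an adjusted p of 0.000312 by the permutation test. It was also lower in sites 100 and 142, with differences of -0.46 and -0.42 and adjusted p of 0.0124 and 0.0388 by the permutation test. Sites 199 and 249 gave -1.02 and -0.69 without a call (adjusted p 0.129 and 0.0737). It was higher in site 46, where it read 0.08 against -1.02 for the own motif, a difference of 1.10 with an adjusted p of 0.0182 by the permutation test. Sites 614, 246 and 707 gave higher calls too, with differences of 0.95, 0.78 and 0.30 and adjusted p of 0.00108, 0.00288 and 0.0385 by the permutation test. Site 342 gave 0.84 without a call (adjusted p 0.0725).

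In the bound5 series, the PPREwt_126 motif was called lower in 6 of 24 sites and higher in 2, where all 600 exchanges gave 37.2% lower and 8.83% higher. Its levels ran from -2.83 in site 705 to 2.63 in site 322. The differences had a median of -0.23, the 10th highest of 25 motifs, against -0.44 over all exchanges. The lower calls were at sites 199, 211, 39, 281, 638 and 413, with differences of -1.60, -1.58, -1.39, -0.95, -0.79 and -0.64. Their adjusted p were 8.5e-05, 0.00179, 0.0182, 0.0119, 0.00111 and 0.0102 in that order, by the permutation test. The higher calls were at site 342, where it read 0.28 against -1.89 for the own motif, and at site 46, where it read 0.64 against -0.68. These differences were 2.17 and 1.32, with adjusted p of 8.5e-05 and 0.000737 by the permutation test. Site 92 gave the 3rd highest difference, 0.61, without a call (adjusted p 0.774). Site 39 was thus lower and site 46 higher with the PPREwt_126 motif in both series.

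Exchange in the opposite direction gave other values. Motif 46 in PPREwt_126 read 0.03 in the bound0 and -1.39 in the bound5 series, against 0.38 and 0.53 for the own motif in the same order. Motif 342 read -1.46 and -1.56. So the PPREwt_126 motif stood above the own motif in sites 46 and 342, although in site 342 it was called higher only in the bound5 series. Motifs 46 and 342 stood below the own motif in PPREwt_126, although motif 46 was called lower only in the bound5 series. The same held there for most foreign motifs, 21 of 24 by level in the bound0 series and all 24 in the bound5 series.

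Pool 5, which lies outside the choice of members, altered named motif matches in 245 sites and lists PPREwt_126 with 19 elements. It holds counts summed over barcodes, so its values have no spread and no test. The wt element had 25099 RNA and 10316 plasmid counts, an activity of 1.44. Alterations of 8 named motifs that start at 99 to 106 gave 7 distinct values, -1.62 to -1.13 from wt with a median of -1.36. This grouping by start was made after the values were seen. The names are those of nuclear receptors: hnf4_103 read -0.19 (difference -1.62), rxr_99 read -0.13 (-1.57), pparg_102 read -0.10 (-1.53), and couptf_105 read 0.07 (-1.36). The starts of these matches overlap, so they alter shared bases, and lxr_106 and rar_106 have identical counts.

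The other alterations at PPREwt_126 moved activity less. The rxr_40 element was at -1.03 from wt, close to the -1.13 of nr1_104, and ap2_80 was at -0.64 and cebp_32 at -0.35. At the same start number in pool 4, comp10_40 and swap20_40 were at 0.26 and -0.37 from wt by barcode medians and were not called. The 5 ctrl elements gave 4 distinct values, -0.49 to 0.10 from wt with a median of -0.19, against a median of -0.20 over 926 ctrl alterations and of -0.69 over 1803 motif alterations of the pool. The ppar_125 and rxr_125 elements, which have identical counts, were at -0.29. In pool 4, comp10_125 had been 1.92 above its wt by barcode medians and 1.29 above it by counts summed over barcodes. No altered match in pool 5 starts between 59 and 77 at any site. The starts 99 to 106 fall in the stretch where comp10_100 and comp10_105 lowered activity in pool 4, if the numbers of both pools count from the same end, which the names do not say. Whether the matches in this stretch include the site's own motif was not tested.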

How the data were processed

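The authors deposited raw read counts per barcode of each element for pools 1, 2 and 4, and counts summed over barcodes for pool 5, per the file headers. Pool 4 was handled per barcode because its deposited table has 13 columns of barcodes, although the design text describes sums. Pool 1 ChIP and input values are deposited counts per element. The submitters' processing notes name mm9, Bowtie2 2.1.0 and BWA 0.7.12, and the step each served is not given in the sources used here. Members and lists were chosen with earlier results of these data known.

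From these counts, Python 3.11.15 with numpy 2.4.6, scipy 1.17.1 and pandas 2.3.3 computed log2((RNA + 1)/total) minus log2((plasmid + 1)/total) for barcodes with at least 20 plasmid counts. Differences printed are between barcode medians unless given as means. The test was a 2-sided permutation test on barcode means with 100000 permutations, or exact enumeration where an element had fewer than 10 barcodes. Benjamini-Hochberg adjustment ran over 1300 tests in pool 2 and 2050 in pool 4. An unadjusted p of 1e-05 is the smallest that these permutations can give. The pairs of forms were added after the data were seen and adjusted over 250 pairs at all 25 sites. Windows, dr1, mut and ctrl were set against wt or the own motif, foreign motifs against the own motif of their series, and ctrlswap against ctrl. Binding was log2 of ChIP over input counts with the same pseudocount and scaling.

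Elements named in the text are wt, mut, wd, ctrl, ctrl5 and dr1, every called window with the 3 lowest and 3 highest of a scan, and the 3 lowest and 3 highest exchanges of a series with every called one where 8 or fewer were called. Neighbours of called windows, comp10_80 and comp10_90, motifs named outside these ranks (such as 46, 360, 591 and 705) and pool 5 elements were named after their values were seen. On simulated counts, the test recovered 66.0% of log2 changes of 1 and all changes of 2 in pool 2, and 23.0% and 94.0% in pool 4. It called 0.818% of unchanged elements in pool 2 and 0.486% in pool 4. Reads of a barcode are not independent molecules, so intervals cover counting error only. The pool 2 ChIP table and pools 3, 6 and 7 were not used here, and in pool 5 101 entries without an element name, with 3.0% of RNA and 4.9% of plasmid counts, were left out. Gene context was not analysed, since no annotation of mm9 was used here.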

Additional observations from a re-analysis of the deposited data

How the results depend on the processing

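Alternatives were a pseudocount of 0.5 or 5, no minimum or a minimum of 100 plasmid counts, rank sums as the test statistic, counts summed over barcodes, and, for binding, another scaling. A further pair of settings was added after the data were seen, the own motif of the bound5 series as the comparison for mut and dr1, and the counts of windows called higher. Each of the differences of mut, dr1 and ctrl kept its direction under the alternatives run for it, and its call under those with a test (summed counts have none), with mut at -2.99 to -2.09 in pool 2 and -2.50 to -2.11 in pool 4. Native minus altered in pool 1 was 2.92 to 3.06. The count of swap windows called lower was 9, or 7 with no minimum, and that of comp windows 4, or 3 with at least 100 plasmid counts. Comp windows called higher were 1, or 2 with rank sums, where comp10_120 gained a call (adjusted p 0.0473). Among single elements, comp10_60 lost its call with at least 100 plasmid counts (-1.02, adjusted p 0.064), ctrlswap20_90 with rank sums (adjusted p 0.06), and swap20_100 and swap20_105 with no minimum (adjusted p 0.246 and 0.232), while motif 539 of the bound5 series gained one with rank sums (adjusted p 0.0442). The cause of these changes was not tested. No difference reversed under an alternative that was run. Each library was made once, so leaving out a replicate could not be tried. No paired analysis was possible because no group had a second library.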
